A study of Homo sapiens with 16 samples.

Results

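The genes described here encode the factors that start protein synthesis at the ribosome (the EIF1 to EIF5 genes) and carry it along the mRNA (the EEF1 and EEF2 genes). They were measured in HCC4006, an established human non-small cell lung cancer line with an activating mutation of EGFR. Cells were treated for 24 hours with both compounds together, with AZ1366, an inhibitor of tankyrase, with gefitinib, which blocks the kinase activity of EGFR, or with the solvent DMSO (vehicle), with 100 nM of any compound present. There were 4 libraries of polyA RNA per group, 16 in all, and every group shared the same line, medium and growth of 24 hours before treatment. The deposited value is FPKM, in which fragments are divided by the length of the transcript and the size of the library, so levels of different genes can be set side by side.

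Members were the loci whose symbol begins with EIF1 to EIF5, EEF1 or EEF2 and that averaged 1 FPKM or more over all 16 libraries, with 1 locus per symbol and without the eIF2 alpha kinases (EIF2AK). The symbols matched at 63 loci. Of these, 59 were members, out of 11647 loci that reached the same mean. The other 4 were EIF4E1B, EIF1AY and the pseudogene EEF1DP3, whose means were under 1 FPKM, and a second locus for EIF3C. By role the members were 11 cap-binding genes, 3 that encode eIF4E-binding proteins, 13 eIF3 subunits, 5 genes of eIF2 and initiator tRNA delivery, 5 eIF2B subunits, 6 genes of start codon selection and subunit joining, 3 eIF5A genes and 8 elongation genes. The roles are broad groups. The elongation genes include EEF2K, the kinase that halts eEF2, and EEF1E1, the scaffold of the tRNA synthetase complex. The cap-binding genes include EIF4A3, the helicase of the exon junction complex. The symbol rule also took in 4 Argonaute genes under the older symbols EIF2C1 to EIF2C4. These encode small RNA effectors and are not translation factors. EIF3IP1, a processed pseudogene, was taken in as well.

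Translation of most mRNAs begins when eIF4E, eIF4G and the helicase eIF4A assemble on the cap, eIF3 joins them to the small ribosomal subunit, and eIF2 brings the initiator tRNA. The exchange factor eIF2B recharges eIF2, eIF5 and eIF5B license and join the subunits, and eEF1 and eEF2 then deliver tRNAs and move the ribosome. Growth factor signalling acts on the pathway through mTORC1, which phosphorylates the eIF4E-binding proteins, and through ERK and the MNK kinases, which act on eIF4E.

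The members together took between 2.80 and 2.94% of the summed FPKM in every library. Within that near-constant share the sums of the roles changed. Elongation genes summed to 7371 ± 182 FPKM with both compounds, 5851 ± 85.3 with AZ1366, 6544 ± 234 with gefitinib and 5626 ± 80.9 with vehicle (SD, n = 4 each). Cap-binding genes summed to 1725 ± 38.7 FPKM with both compounds, 1895 ± 127 with AZ1366, 1887 ± 52.8 with gefitinib and 2185 ± 39.6 with vehicle. EEF1A1 alone was 34.0 ± 1.14% of the members' sum with both compounds, 26.8 ± 1.78% with AZ1366, 30.9 ± 1.07% with gefitinib and 23.7 ± 0.749% with vehicle. It weighs most in the elongation sum, which does not stand for each gene of that role. As deposited, EEF1A1, EEF1G and EEF1B2 were higher with both compounds than with vehicle. EEF1E1, EEF2K, EEF2 and EEF1A2 were lower, and EEF1D was not called. In the cap-binding sum, EIF4A2, EIF4E2 and EIF4E3 were higher although the sum was lower.

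The 16 libraries summed to between 433357 and 478179 FPKM over 24293 loci. The number of reads is not known, so no counting interval can be given, and whether libraries of the same group were grown as separate cultures is not stated, which leaves each p-value a measure of library spread that may be technical. In bulk RNA, fewer cells of a kind and less RNA per cell cannot be told apart. DUSP6, a target of ERK signalling, averaged 2.99 FPKM with both compounds, 22.8 with AZ1366, 2.71 with gefitinib and 23.5 with vehicle. MYC, a driver of growth and of translation genes, averaged 1.402 FPKM with both compounds, 3.02 with AZ1366, 2.79 with gefitinib and 5.73 with vehicle. EGFR averaged 20.8 FPKM with both compounds, 41.3 with AZ1366, 38.1 with gefitinib and 77.7 with vehicle, while the tankyrase genes TNKS (-0.04 ± 0.055, adjusted p = 0.563, log2 change with both compounds) and TNKS2 (0.04 ± 0.073, adjusted p = 0.639) were not called. The epithelial markers EPCAM, KRT8, KRT18, KRT19 and CDH1 averaged between 137 and 1454 FPKM by group. The leukocyte markers PTPRC and CD3E averaged under 0.1 FPKM. CD68, the other leukocyte marker listed, averaged 46.8 FPKM over the 16 libraries. It was called higher than vehicle with both compounds (log2 change 0.73), with gefitinib (0.54) and with AZ1366 (0.22). Of the lung markers, NKX2-1 averaged 6.502 to 8.641 FPKM and NAPSA and SFTPB under 1 FPKM. Library 1 of AZ1366 had a scaling factor of 1.09 by median ratio, against 0.912 to 0.972 in the other AZ1366 libraries and 1.05 to 1.09 with vehicle, and it stood nearest to vehicle for several falling members. Vehicle library 1 was the highest of its group for several of the same members.

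A member was called higher or lower when its adjusted p in limma was below 0.05, over all 11647 loci, and each log2 change below is a difference of group means of log2(FPKM + 1) with its standard error. Both compounds together gave 15 members higher and 33 lower than vehicle, with 11 not called. Over all loci tested, 79.3% were called in this comparison, 29.9% higher and 49.4% lower, so the members' counts, out of 59, lay close to the background. The median change of the members was -0.24, and that of all loci was -0.15. AZ1366 alone gave 11 members higher and 24 lower than vehicle, beside 58.4% of all loci called, 18.6% higher and 39.8% lower, with medians of -0.09 for the members and -0.10 for all loci. Gefitinib alone gave 11 higher and 30 lower, beside 64.6% of all loci called, 27.7% higher and 36.9% lower, with medians of -0.19 and -0.06. The 3 comparisons share the vehicle libraries. The libraries of both compounds and of vehicle did not overlap for 47 members (76.5% of all loci), those of AZ1366 and vehicle for 31 (40.6%) and those of gefitinib and vehicle for 40 (60.9%).

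The libraries' median-ratio factors ran from 0.904 to 1.09, and scaling by them brought the median change of all loci to 0.00 in these comparisons. After that scaling the members split into 19 higher and 26 lower with both compounds, 19 and 18 with AZ1366, and 12 and 28 with gefitinib, where all loci split into 40.4% and 40.3% (80.7% called), 30.4% and 30.3% (60.7% called), and 33.1% and 33.9% (67% called).

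With both compounds against gefitinib, 12 members were higher and 24 lower, beside 52.5% of all loci called (15.3% higher, 37.2% lower). After median-ratio scaling the counts were 20 and 16, beside 54.5% called (26.6% higher, 27.9% lower). With both compounds against AZ1366, 13 were higher and 33 lower, beside 62.6% called (26.9% and 35.7%). The counts were 14 and 25 after scaling, beside 66.3% called (32.6% and 33.7%). Gefitinib against AZ1366 gave 8 higher and 14 lower, beside 46% called (28.1% higher and 17.9% lower), and 7 and 19 after scaling, beside 51.4% called (25.9% higher and 25.5% lower). In that last comparison the medians were -0.04 for the members and 0.04 for all loci as deposited, and -0.10 and -0.01 after scaling.

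Without library 1 of both vehicle and AZ1366, 6 calls were lost and 8 gained over the 7 comparisons. Against AZ1366, the calls with both compounds of EIF3L (0.10, adjusted p = 0.0559), EIF4A1 (-0.11, adjusted p = 0.0545), EIF4A3 (-0.10, adjusted p = 0.0775) and EIF4H (-0.10, adjusted p = 0.117) were lost and EEF1A2 was called higher (0.25, adjusted p = 0.00402). EIF3H was no longer called with AZ1366 (0.20, adjusted p = 0.111) or with both compounds (0.17, adjusted p = 0.122) against vehicle. Calls were gained for EIF4E (-0.15, adjusted p = 0.0260) and EIF2C1 (-0.14, adjusted p = 0.0304) with AZ1366, EIF4B (-0.14, adjusted p = 0.0238) with both compounds and EIF5A2 (-0.17, adjusted p = 0.0239) with gefitinib, all against vehicle. Gefitinib against AZ1366 gained EIF4ENIF1 (0.21, adjusted p = 0.00657) and EIF3K (-0.17, adjusted p = 0.0418), and the interaction gained EEF2 (0.36, adjusted p = 0.0442).

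The interaction of the compounds, the test of whether their joint change differs from the sum of the single changes on the log2 scale, was called for no member in limma, beside 1.82% of all loci (1.49% lower), or 3.6% after median-ratio scaling (2.52% lower). There were 8 members with an unadjusted p below 0.05. The share of all loci at that threshold was not computed, so nothing is read from this count. Without library 1 of AZ1366, EEF2 and EIF3B were called, and after a correction for transcript length and GC content EIF4A2 was. That correction, a smooth curve over all loci taken out of each library's values, gave 10 members higher and 38 lower with both compounds than with vehicle, beside 79.9% of all loci called (29.7% higher, 50.2% lower). With AZ1366 it gave 10 and 35, beside 57.9% (17% higher, 40.9% lower), and with gefitinib 9 and 35, beside 67.5% (29% higher, 38.6% lower).

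**Figure D1:**
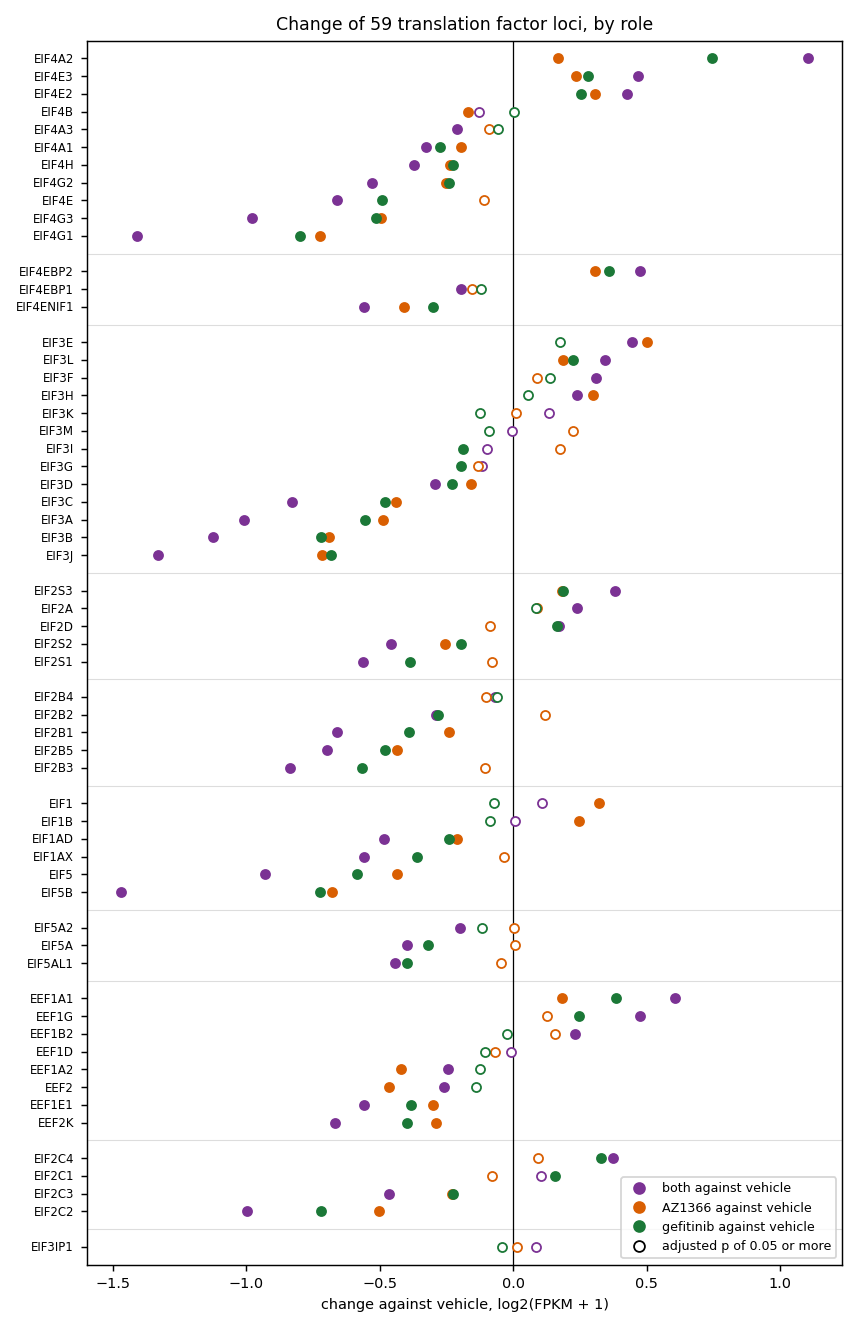
Each row is 1 of the 59 member loci, ordered by role from cap-binding genes at the top to Argonautes and the pseudogene at the bottom. Points give the log2(FPKM + 1) change against vehicle for both compounds, AZ1366 and gefitinib, and open points have an adjusted p of 0.05 or more. EIF5B, EIF4G1 and EIF3J lie farthest to the left with both compounds and EIF4A2 farthest to the right.

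Members were also described by the first bases of their transcripts. Many mRNAs of ribosomal proteins and elongation factors begin with a C followed by an unbroken run of pyrimidines, the terminal oligopyrimidine tract, through which mTORC1 and LARP1 control their translation. RefSeq promoters (GRCh38.p14) were found for 48 of the 59 members. EEF1A2, EEF1D, EIF2C2, EIF2S2, EIF3A, EIF3E, EIF3G, EIF3H, EIF3IP1, EIF3L and EIF4EBP1, 11 in all, had no entry. They are on neither side of the split by start. The promoters found were searched on the transcript's strand for C as the first base of an annotated start. Each of the next 4 bases had to be C or T. Such a start was found in 12 members (25.0% of 48), against 5.14% of all 27305 symbols in the table and 7.54% of 9402 tested loci with an entry. The feature was looked for after the values had been seen, and a match is a description of the annotated start only. The windows below run 5′ to 3′ over 15 bases before and 15 bases from the start, on the transcript's strand, with the first 5 transcribed bases in capitals, and are shown because the changes below are split by this start. The first set is the 12 members with such a start.
EEF1A1: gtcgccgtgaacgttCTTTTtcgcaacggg
EIF4A2: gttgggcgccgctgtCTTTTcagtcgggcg
EIF2S3: ggggtgatttccttcCTCTTttggcaacat
EIF3F: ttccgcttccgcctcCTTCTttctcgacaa
EIF2A: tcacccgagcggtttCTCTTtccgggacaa
EEF1B2: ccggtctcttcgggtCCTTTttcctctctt
EIF2D: ggtttccagccgggcCCTTTtcgcggccgg
EIF3K: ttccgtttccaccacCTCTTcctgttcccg
EIF3M: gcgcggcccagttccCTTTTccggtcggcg
EIF4B: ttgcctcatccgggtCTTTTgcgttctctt
EEF2: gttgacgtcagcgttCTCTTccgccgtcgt
EIF3D: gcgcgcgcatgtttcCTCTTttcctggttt

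The second set gives 1 annotated start for each of 6 members without it, chosen among those that fell with both compounds. Among them are the cap-binding genes EIF4G1 and EIF4E and the EIF4A2 paralogue EIF4A1. The matched members without it that rose, EEF1G, EIF4E2, EIF4E3, EIF4EBP2 and EIF2C4, have no window here.
EIF4A1: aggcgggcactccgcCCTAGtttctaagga
EIF4G1: tctgtgcggggagccGGAAAtggttgtgga
EIF5B: gcgcactgagaactcACACCatatgtgtcc
EIF3B: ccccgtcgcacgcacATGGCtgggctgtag
EIF3J: cacctccgccgtgctAACTCctcgctagct
EIF4E: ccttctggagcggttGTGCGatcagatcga

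The EIF4A2 window lies at chr3:186783562-186783591 on the plus strand and the EEF1A1 window at chr6:73521018-73521047 on the minus strand, while the EIF4A1 window, whose transcript begins CCTAG, lies at chr17:7572810-7572839 on the plus strand. With both compounds against vehicle, 7 of the 12 members with such a start were higher and 2 lower (EEF2 and EIF3D), with a median change of 0.20. Of the 36 matched members without it, 5 were higher and 26 lower, with a median of -0.47. Over all tested loci with an entry, the 709 with such a start had a median of -0.01, with 38.8% higher and 39.9% lower. The 8693 without it had a median of -0.17, with 28.9% higher and 50.6% lower. With gefitinib the medians were 0.05 for members with and -0.29 for members without such a start, and with AZ1366 they were 0.09 and -0.11. Across all 59 members Spearman's rho of the change with transcript length was -0.30 with both compounds (-0.33 over all loci). After the length and GC correction, 3 of the 12 members with such a start were higher and 3 lower with both compounds, with a median of 0.05. Of the 36 without it, 5 were higher and 28 lower after the correction, with a median of -0.40. All loci tested, not split by start, were then 29.7% higher and 50.2% lower with both compounds. With AZ1366 the corrected medians were -0.07 and -0.17, and with gefitinib 0.01 and -0.28. No p is given, since the members share libraries and the feature was chosen with the values known.

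**Figure D2:**
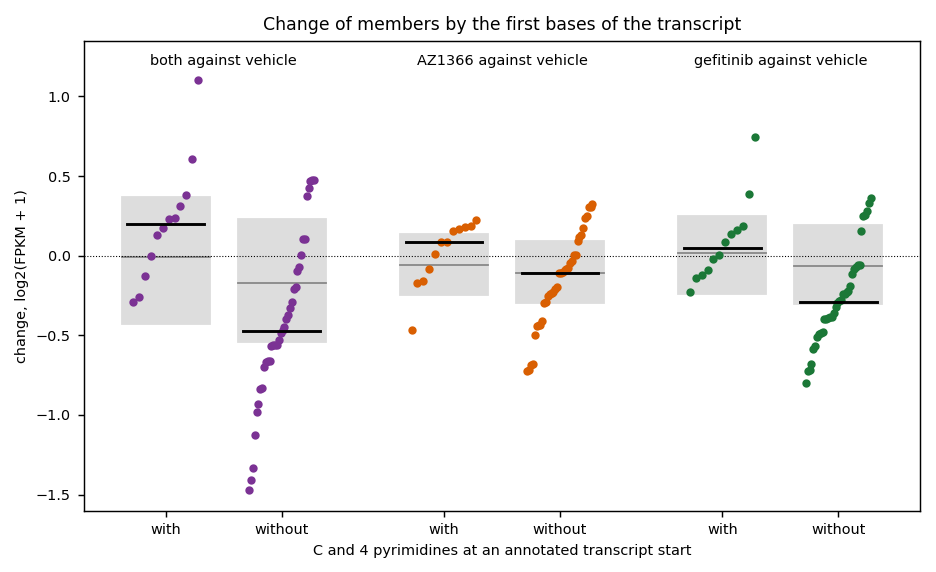
Points are the 48 matched members, split by whether an annotated transcript start has C and 4 pyrimidines, and give the log2(FPKM + 1) change against vehicle for both compounds, AZ1366 and gefitinib. Black lines are the members' medians, and grey boxes span the quartiles of all tested loci with a promoter entry, with their median as a grey line. With both compounds the median of members with such a start was 0.20 and of those without it -0.47.

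Among the cap-binding genes, the helicase paralogues moved apart. EIF4A2 (chr3:186501360-186524484 on hg19) rose and EIF4A1 (chr17:7465308-7482324, a locus joined with SENP3 and SNORA67 in the table) fell with every treatment. EIF4A2, the less abundant of the pair, was at 119, 115, 127 and 115 FPKM with both compounds, 61.2, 64.1, 58.2 and 62.8 with AZ1366, 93.1, 90.1, 97.9 and 88.1 with gefitinib and 53.9, 57.1, 53.5 and 54.0 with vehicle. No library of any treated group was below a vehicle library, and the combination, gefitinib and AZ1366 groups did not overlap one another. The log2 change against vehicle was 1.11 ± 0.050, adjusted p = 1.68e-12, with both compounds, 0.74 ± 0.050, adjusted p = 8.42e-10, with gefitinib and 0.17 ± 0.050, adjusted p = 0.00801, with AZ1366. After the length and GC correction the AZ1366 change was -0.03, adjusted p = 0.634, so the small rise with AZ1366 was lost. EIF4A2 was also higher with both compounds than with gefitinib (0.36 ± 0.050, adjusted p = 2.58e-05) and higher with gefitinib than with AZ1366 (0.58 ± 0.050, adjusted p = 4.67e-08).

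EIF4A1 was at 579, 605, 591 and 599.6 FPKM with both compounds, 690.1, 629.5, 643 and 645 with AZ1366, 599, 639.9, 597 and 628 with gefitinib and 774, 710.1, 749.6 and 749 with vehicle. All vehicle libraries were above all treated libraries. The change with both compounds was -0.33 ± 0.048, adjusted p = 6.3e-06 and its value cannot be split among the joined genes. The change with both compounds was -0.15 after median-ratio scaling and -0.50, adjusted p = 9e-08, after the length and GC correction. With AZ1366 it was -0.19 ± 0.048, adjusted p = 0.00255, and -0.07 after median-ratio scaling, which was not called. The ratio of EIF4A2 to EIF4A1 within a library needs no scaling between libraries. It averaged 0.200 ± 0.0117 with both compounds, 0.0946 ± 0.00610 with AZ1366, 0.150 ± 0.0116 with gefitinib and 0.0734 ± 0.00478 with vehicle (SD, n = 4 each), and no 2 groups overlapped in it. EIF4A3, the helicase of the exon junction complex, changed less (-0.21 ± 0.048, adjusted p = 0.000608, with both compounds, and -0.03 after median-ratio scaling, which was not called).

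PDCD4, which is no member by symbol but encodes the inhibitor that binds eIF4A, moved with EIF4A2. Its values were 23.3, 25.5, 21.3 and 23.4 FPKM with both compounds, 12.8, 9.24, 8.77 and 10.4 with AZ1366, 19.9, 19.4, 19.6 and 19.8 with gefitinib and 8.16, 7.73, 7.56 and 7.78 with vehicle. The groups did not overlap, and the log2 change was 1.47 ± 0.083, adjusted p = 3.01e-11, with both compounds, 1.23 ± 0.083, adjusted p = 8.63e-10, with gefitinib and 0.35 ± 0.083, adjusted p = 0.00188, with AZ1366.

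The scaffold EIF4G1 (chr3:184032282-184053146 on hg19), which ties the cap to eIF3, fell more than any other cap-binding gene. It was at 50.5, 53.7, 44.2 and 46.4 FPKM with both compounds, 103, 68.4, 71.1 and 76.7 with AZ1366, 80.6, 78.3, 68.5 and 71.6 with gefitinib and 150.4, 125, 123 and 126 with vehicle. The combination libraries were the lowest and the vehicle libraries the highest with no overlap, and AZ1366 library 1, at 103 FPKM, stood between its group and vehicle. The change was -1.41 ± 0.11, adjusted p = 1.23e-09, with both compounds, -0.72 ± 0.11, adjusted p = 4.02e-05, with AZ1366 and -0.80 ± 0.11, adjusted p = 3.93e-06, with gefitinib. EIF4G3, a second scaffold, fell by 0.98 on the log2 scale with both compounds (adjusted p = 1.95e-06), and averaged 6.87 ± 0.855 FPKM with both, 10.16 ± 2.67 with AZ1366, 9.89 ± 1.38 with gefitinib and 14.5 ± 1.33 with vehicle. EIF4G2, whose protein lacks the eIF4E binding site and serves cap-independent starts, was far more abundant and fell less, with 509 ± 21.4 FPKM with both compounds, 618 ± 59.5 with AZ1366, 622 ± 37.8 with gefitinib and 734 ± 13.3 with vehicle. Within a library EIF4G2 was 10.5 ± 0.480 times EIF4G1 with both compounds, 7.86 ± 0.700 times with AZ1366, 8.33 ± 0.405 times with gefitinib and 5.64 ± 0.514 times with vehicle.

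EIF4E, the cap-binding protein itself, followed gefitinib more than AZ1366. It was at 35.1, 35.6, 33.9 and 35.6 FPKM with both compounds, 55.6, 48.9, 55.3 and 48.0 with AZ1366, 39.1, 38.9, 42.0 and 38.05 with gefitinib and 54.3, 57.3, 58.1 and 54.2 with vehicle. AZ1366 and vehicle libraries overlapped, and every combination and gefitinib library was below both groups. The change was -0.66 ± 0.055, adjusted p = 5.04e-09, with both compounds, -0.49 ± 0.055, adjusted p = 5.52e-07, with gefitinib and -0.11 ± 0.055, adjusted p = 0.0976, with AZ1366, and gefitinib differed from AZ1366 by -0.38 ± 0.055, adjusted p = 1.8e-05. The AZ1366 change was called without AZ1366 library 1 (-0.14, adjusted p = 0.0292) and after the length and GC correction (-0.41, adjusted p = 0.000427), which also enlarged the fall with both compounds (-1.04, adjusted p = 1.96e-09). EIF4E2 and EIF4E3, which encode cap-binding homologues, went the other way: EIF4E2 averaged 100.4 ± 4.94 FPKM with both compounds, 92.3 ± 2.65 with AZ1366, 89.0 ± 6.46 with gefitinib and 74.4 ± 3.88 with vehicle. Their changes with both compounds were 0.43 ± 0.057, adjusted p = 2.08e-06, for EIF4E2 (0.23 after the length and GC correction) and 0.47 ± 0.055, adjusted p = 4.84e-07, for EIF4E3, a gene at only 4.39 FPKM with both compounds and 2.90 with vehicle.

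Of the eIF4E-binding proteins, which hold eIF4E away from eIF4G, EIF4EBP2 rose with each treatment. It was at 31.8, 31.5, 31.9 and 33.1 FPKM with both compounds, 28.9, 28.4, 28.5 and 27.8 with AZ1366, 28.3, 28.4, 30.5 and 31.0 with gefitinib and 21.5, 23.2, 23.5 and 22.8 with vehicle. Every treated library was above every vehicle library, and the change was 0.48 ± 0.046, adjusted p = 3.38e-08, with both compounds, 0.36 ± 0.046, adjusted p = 2.6e-06, with gefitinib and 0.31 ± 0.046, adjusted p = 5.13e-05, with AZ1366. Within a library EIF4EBP2 was 0.915 ± 0.0243 of EIF4E with both compounds, 0.549 ± 0.0360 with AZ1366, 0.749 ± 0.0434 with gefitinib and 0.407 ± 0.0101 with vehicle, with no overlap between groups. EIF4EBP1, the member of the family that is best known as an mTORC1 target, changed little, with 48.7 ± 3.02 FPKM with both compounds, 50.2 ± 3.93 with AZ1366, 51.4 ± 4.47 with gefitinib and 55.8 ± 2.16 with vehicle. Its fall with both compounds (-0.20 ± 0.068, adjusted p = 0.0138) was -0.48, adjusted p = 2.41e-07, after the length and GC correction, and was not called after median-ratio scaling (-0.02) or without combination library 3 (-0.16, adjusted p = 0.0518). EIF4ENIF1, which carries eIF4E into the nucleus, fell at a level of a few FPKM (-0.56 ± 0.087, adjusted p = 1.37e-05, with both compounds).

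EIF4B and EIF4H, which stimulate eIF4A, also differed. EIF4H fell with each treatment (-0.37 ± 0.055, adjusted p = 7.34e-06, with both compounds), though with AZ1366 not after median-ratio scaling (-0.11), while EIF4B averaged 100.3 FPKM with both compounds, 97.9 with AZ1366, 110.1 with gefitinib and 109.7 with vehicle. Its change with both compounds was -0.13 ± 0.065, adjusted p = 0.0782. The AZ1366 change of EIF4B was just called (-0.17 ± 0.065, adjusted p = 0.0351), but not without any 1 of AZ1366 libraries 2, 3 or 4 or of the vehicle libraries (adjusted p between 0.0504 and 0.124), and not after median-ratio scaling (-0.04) or the length and GC correction (-0.06, adjusted p = 0.276).

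**Figure D3:**
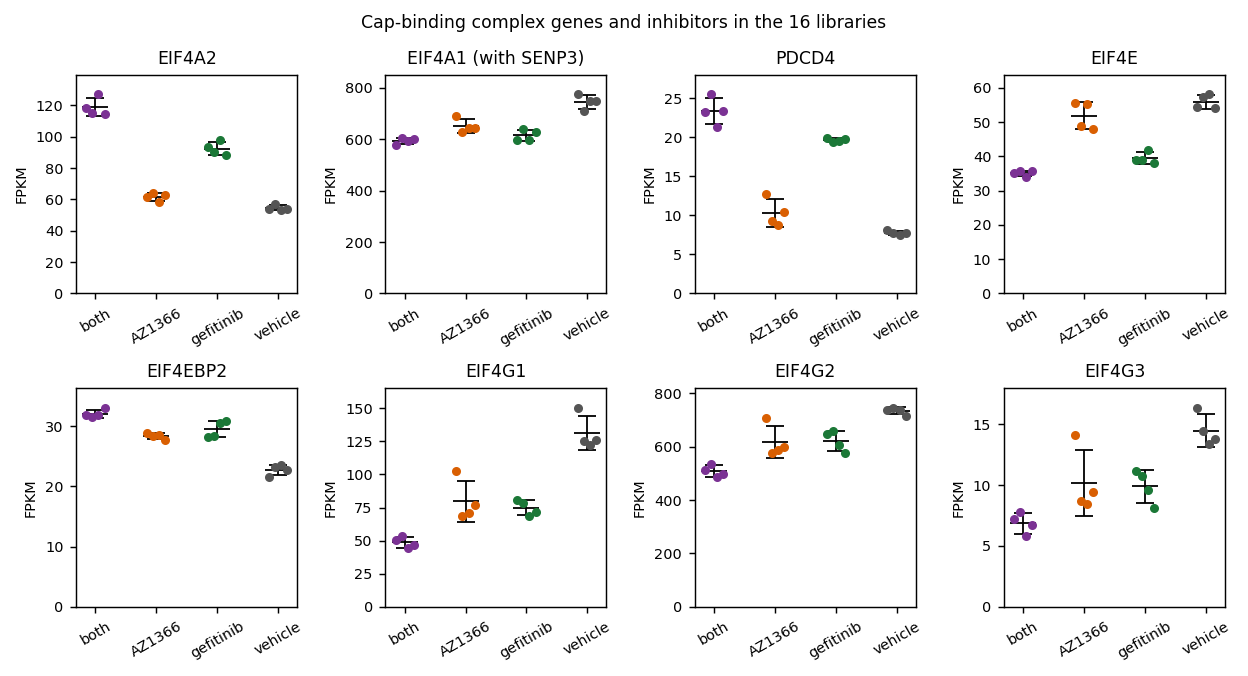
Panels give the FPKM of EIF4A2, EIF4A1, PDCD4, EIF4E, EIF4EBP2, EIF4G1, EIF4G2 and EIF4G3 in the 4 libraries of each group (both compounds, AZ1366, gefitinib and vehicle from left to right), with the mean and SD. EIF4A2 averaged 119 FPKM with both compounds and 54.6 with vehicle, while EIF4G1 averaged 48.7 and 131 FPKM.

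The subunits of eIF3, the large complex that bridges eIF4G and the small ribosomal subunit, did not move as 1 unit. With both compounds against vehicle, 5 of the 13 fell (EIF3A, EIF3B, EIF3C, EIF3D and EIF3J), 4 rose (EIF3E, EIF3F, EIF3H and EIF3L) and 4 were not called (EIF3G, EIF3I, EIF3K and EIF3M). EIF3A, EIF3B and EIF3C encode the 3 largest core subunits, and EIF3J a loosely held one that acts at the decoding site. AZ1366 alone gave 3 higher and 5 lower, and gefitinib alone gave 1 higher and 7 lower. Beside these counts of 13, all loci tested were 29.9% higher and 49.4% lower with both compounds. They were 18.6% higher and 39.8% lower with AZ1366, and 27.7% higher and 36.9% lower with gefitinib. Median-ratio scaling ended the call of EIF3D and made EIF3K higher with both compounds. With AZ1366 it ended that of EIF3D and made EIF3F, EIF3I and EIF3M higher, and with gefitinib it ended those of EIF3G and EIF3I and made EIF3F higher. After the length and GC correction 8 of the 13 subunits were lower with both compounds, since EIF3G (-0.39, adjusted p = 1.07e-05), EIF3I (-0.34, adjusted p = 0.000368) and EIF3K (-0.23, adjusted p = 0.00106) joined the 5. After it 2 were higher, EIF3H (0.35, adjusted p = 0.00323) and EIF3L. The shares of all loci after it were 50.2% lower and 29.7% higher.

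EIF3J was at 35.2, 38.4, 28.7 and 31.0 FPKM with both compounds, 72.9, 42.6, 50.02 and 44.7 with AZ1366, 54.1, 59.04, 49.6 and 48.2 with gefitinib and 84.4, 88.2, 88.3 and 79.1 with vehicle. The combination libraries were below all others. AZ1366 library 1 was apart from its group again, above every gefitinib library and below every vehicle library. The change was -1.33 ± 0.13, adjusted p = 3.34e-08, with both compounds, -0.71 ± 0.13, adjusted p = 0.000232, with AZ1366 and -0.68 ± 0.13, adjusted p = 0.000171, with gefitinib. EIF3B was at 82.0, 94.7, 76.04 and 80.7 FPKM with both compounds, 143, 97.2, 111 and 105 with AZ1366, 109, 119, 102 and 112 with gefitinib and 207, 174, 172 and 180.1 with vehicle. Its combination libraries were again the lowest, and the change was -1.13 ± 0.10, adjusted p = 1.12e-08, with both compounds, -0.69 ± 0.10, adjusted p = 3.7e-05, with AZ1366 and -0.72 ± 0.10, adjusted p = 6.88e-06, with gefitinib. EIF3A was at 54.4, 57.5, 47.7 and 47.7 FPKM with both compounds, 95.3, 68.6, 68.2 and 69.0 with AZ1366, 76.4, 75.5, 69.3 and 63.7 with gefitinib and 105, 105, 107 and 103 with vehicle. AZ1366 libraries 2, 3 and 4 lay within 1 FPKM of each other and library 1 far above them, and the change with both compounds was -1.01 ± 0.094, adjusted p = 2.33e-08. EIF3C, for which the table has 2 loci with the near-identical EIF3CL, fell with both compounds (-0.83 ± 0.058, adjusted p = 4.77e-10), and reads of the copies cannot be told apart.

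EIF3E was at 352, 353, 399 and 386 FPKM with both compounds, 347, 354, 436 and 422 with AZ1366, 302, 304, 327 and 301 with gefitinib and 221, 334, 295 and 255 with vehicle. All combination and AZ1366 libraries were above all vehicle libraries, and the gefitinib libraries overlapped with the vehicle range, 221 to 334 FPKM. The change was 0.44 ± 0.10, adjusted p = 0.000701, with both compounds, 0.50 ± 0.10, adjusted p = 0.000621, with AZ1366 and 0.17 ± 0.10, adjusted p = 0.145, with gefitinib. After the length and GC correction the change with both compounds was 0.09, adjusted p = 0.270, so that call was lost, and with AZ1366 it was 0.20, adjusted p = 0.0272. The change with gefitinib was called without vehicle library 2 (0.27, adjusted p = 0.0207), and gefitinib was below AZ1366 (-0.33 ± 0.10, adjusted p = 0.0140), though not called without AZ1366 library 3 (-0.27, adjusted p = 0.0537). EIF3H was called higher with both compounds (0.24 ± 0.10, adjusted p = 0.0365), but not without any 1 of the combination libraries or of vehicle libraries 1 or 4 (adjusted p between 0.0544 and 0.143).

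EIF3F and EIF3L rose with both compounds in groups that did not overlap with vehicle. EIF3F was at 262, 248, 264 and 284 FPKM with both compounds and 215, 218, 207 and 211 with vehicle (0.31 ± 0.060, adjusted p = 0.000131), and was not called after the length and GC correction (0.04, adjusted p = 0.371). EIF3L was at 166, 170.1, 178 and 175 FPKM with both compounds and 133, 137, 139.6 and 132 with vehicle (0.34 ± 0.054, adjusted p = 1.49e-05, and 0.17, adjusted p = 0.000363, after that correction). EIF3M, the most abundant subunit, spread widely within vehicle, with 894, 929.5, 939.9 and 996 FPKM with both compounds, 1041, 1022, 1220.3 and 1126 with AZ1366, 808, 926, 889 and 919.9 with gefitinib and 792, 1097, 1095 and 826 with vehicle. Vehicle libraries 2 and 3 lay within the AZ1366 range and libraries 1 and 4 below every combination library, and no change with both compounds was called (adjusted p = 0.975). Within a library the ratio of EIF3E to EIF3B was 4.51 ± 0.651 with both compounds, 3.50 ± 0.739 with AZ1366, 2.80 ± 0.285 with gefitinib and 1.53 ± 0.372 with vehicle. The vehicle libraries, at 1.07 to 1.92, lay below all treated libraries, of which the lowest was at 2.42.

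**Figure D4:**
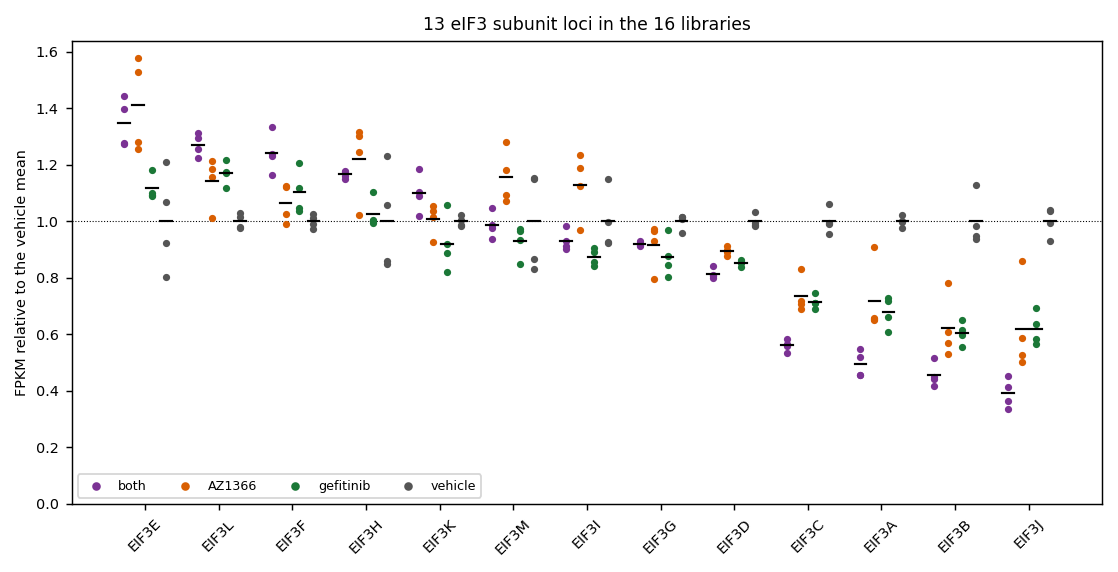
Each point is the FPKM of 1 library divided by the vehicle mean of that eIF3 subunit, for both compounds, AZ1366, gefitinib and vehicle from left to right within a subunit, with group means as black bars. The means of EIF3E, EIF3L, EIF3F and EIF3H lie above 1 with both compounds and those of EIF3C, EIF3A, EIF3B and EIF3J below it, with no overlap between combination and vehicle libraries except for EIF3H among these 8.

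The trimer eIF2 brings the initiator tRNA to the ribosome, and its 3 subunit genes did not move together. EIF2S1 encodes the alpha subunit, whose phosphorylation slows translation under stress. It was at 97.2, 95.8, 97.3 and 97.8 FPKM with both compounds, 135, 140.3, 136 and 134 with AZ1366, 112, 113, 111 and 104 with gefitinib and 136, 143, 154 and 143 with vehicle. AZ1366 and vehicle libraries overlapped, the other groups did not, and the change was -0.56 ± 0.045, adjusted p = 3.44e-09, with both compounds, -0.39 ± 0.045, adjusted p = 1.15e-06, with gefitinib and -0.08 ± 0.045, adjusted p = 0.145, with AZ1366. EIF2S2, the beta subunit gene, fell with both compounds (-0.46 ± 0.059, adjusted p = 1.36e-06). EIF2S3, the gamma subunit gene on the X chromosome, rose, with 126, 128, 129 and 132 FPKM with both compounds against 91.5, 102, 104 and 98.5 FPKM with vehicle (0.38 ± 0.056, adjusted p = 6.64e-06). EIF2A and EIF2D, which can deliver initiator tRNA without eIF2, were slightly higher with both compounds (0.24 ± 0.049, adjusted p = 0.000261, for EIF2A and 0.17 ± 0.052, adjusted p = 0.00632, for EIF2D). Neither was called after the length and GC correction (0.06, adjusted p = 0.103, for EIF2A and 0.01, adjusted p = 0.818, for EIF2D).

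Of the 5 subunit genes of eIF2B, the factor that exchanges GDP for GTP on eIF2, 4 fell with both compounds, beside 49.4% of all loci. None was called higher in any comparison as deposited. EIF2B3 was at 6.05, 5.93, 7.25 and 7.17 FPKM with both compounds, 11.1, 10.8, 12.5 and 11.9 with AZ1366, 7.44, 8.41, 7.70 and 9.07 with gefitinib and 12.5, 12.6, 12.999 and 12.003 with vehicle. The AZ1366 libraries overlapped with vehicle, and those with gefitinib or both compounds lay below. The change was -0.84 ± 0.072, adjusted p = 8.21e-09, with both compounds, -0.57 ± 0.072, adjusted p = 2.65e-06, with gefitinib and -0.11 ± 0.072, adjusted p = 0.209, with AZ1366, where the length and GC correction gave a call (-0.26, adjusted p = 0.00147). Gefitinib differed from AZ1366 by -0.46 ± 0.072, adjusted p = 5.03e-05. EIF2B5, the catalytic subunit gene, averaged 9.77 ± 0.316 FPKM with both compounds, 11.95 ± 1.08 with AZ1366, 11.5 ± 0.534 with gefitinib and 16.5 ± 1.03 with vehicle, and fell with every treatment (-0.70 ± 0.062, adjusted p = 1.17e-08, with both compounds). EIF2B1, whose subunit is regulatory, fell with every treatment as well (-0.66 ± 0.049, adjusted p = 1.12e-09, with both compounds), though with AZ1366 not after median-ratio scaling. EIF2B2 fell with both compounds (-0.29 ± 0.078, adjusted p = 0.00245), though not after median-ratio scaling (-0.11) or the length and GC correction (-0.10, adjusted p = 0.283). With AZ1366 against vehicle, EIF2B2 was called higher after that scaling (0.24, adjusted p = 0.01998) and after that correction (0.22, adjusted p = 0.0361). EIF2B4 was called in no comparison as deposited, but was lower after the length and GC correction (-0.25, adjusted p = 3.28e-05, with both compounds, -0.20, adjusted p = 0.000993, with AZ1366 and -0.13, adjusted p = 0.0105, with gefitinib) and, with AZ1366, without vehicle library 3 (-0.12, adjusted p = 0.0493). It averaged 16.1 FPKM with both compounds, 15.7 with AZ1366, 16.2 with gefitinib and 16.9 with vehicle.

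EIF5B, the GTPase that joins the ribosomal subunits, had the largest fall of all 59 members with both compounds. It was at 20.1, 20.8, 18.3 and 19.3 FPKM with both compounds, 46.4, 31.2, 29.3 and 33.7 with AZ1366, 40.6, 38.8, 30.8 and 25.8 with gefitinib and 52.7, 59.3, 59.8 and 52.6 with vehicle. The combination libraries lay together below every other library, whereas the gefitinib libraries spread over 25.8 to 40.6 FPKM. The change was -1.47 ± 0.13, adjusted p = 1.38e-08, with both compounds, -0.68 ± 0.13, adjusted p = 0.000432, with AZ1366 and -0.73 ± 0.13, adjusted p = 0.000124, with gefitinib. The combination was also below AZ1366 (-0.79 ± 0.13, adjusted p = 5.17e-05) and below gefitinib (-0.74 ± 0.13, adjusted p = 0.000258). EIF5, the GTPase-activating factor of eIF2, fell with both compounds (-0.93 ± 0.070, adjusted p = 1.24e-09), and EIF1AX, which scans for the start codon, fell with both (-0.56 ± 0.055, adjusted p = 4.76e-08) and with gefitinib (-0.36 ± 0.055, adjusted p = 2.22e-05) but was not called with AZ1366 (-0.04 ± 0.055, adjusted p = 0.594) except after the length and GC correction (-0.11, adjusted p = 0.0375).

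EIF1, the gatekeeper of start codon choice, was higher with AZ1366. It was at 234, 235, 269 and 244 FPKM with both compounds, 285, 259.7, 295 and 302 with AZ1366, 217, 208, 216 and 225 with gefitinib and 203, 284, 222 and 209.7 with vehicle. Vehicle library 2, at 284 FPKM, lay among the AZ1366 libraries, and the other vehicle libraries were below them. The change was 0.32 ± 0.084, adjusted p = 0.00377, with AZ1366, -0.07 ± 0.084, adjusted p = 0.463, with gefitinib and 0.11 ± 0.084, adjusted p = 0.251, with both compounds, and gefitinib was below AZ1366 (-0.40 ± 0.084, adjusted p = 0.000952). The change with both compounds was called without vehicle library 2 (0.21, adjusted p = 0.00618) and after median-ratio scaling (0.29). EIF1B, its paralogue, was called higher with AZ1366 (0.25 ± 0.076, adjusted p = 0.0104), though not after the length and GC correction (-0.07, adjusted p = 0.312).

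EIF5A, which frees ribosomes stalled on proline-rich stretches and carries hypusine, was lower where gefitinib was present. It was at 359.5, 387, 377 and 386 FPKM with both compounds, 481, 505, 517 and 495 with AZ1366, 383, 373, 394 and 449 with gefitinib and 495, 511, 497 and 488 with vehicle. AZ1366 and vehicle overlapped, and every library with gefitinib or both compounds was below all of them. The change was -0.40 ± 0.055, adjusted p = 3.52e-06, with both compounds, -0.32 ± 0.055, adjusted p = 7.87e-05, with gefitinib and 0.01 ± 0.055, adjusted p = 0.938, with AZ1366, and gefitinib was below AZ1366 (-0.32 ± 0.055, adjusted p = 0.000122). With both compounds the change was -0.22 after median-ratio scaling and -0.64, adjusted p = 6.39e-11, after the length and GC correction. The AZ1366 value turned negative and was called under quantile normalization (-0.15, adjusted p = 0.0096) and the length and GC correction (-0.11, adjusted p = 0.0134). EIF5AL1, a near-identical copy, stood at 0.121 to 0.135 of EIF5A in all 16 libraries, and the 2 cannot be told apart here. EIF5A2 averaged about 3 FPKM (2.75 ± 0.131 with both compounds and 3.31 ± 0.379 with vehicle), and its fall with both compounds (-0.20 ± 0.069, adjusted p = 0.0139) was not called after median-ratio scaling (-0.06) or without vehicle library 2 (-0.15, adjusted p = 0.0604).

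EEF1A1 (chr6:74225472-74230755 on hg19), which carries tRNAs to the ribosome, was the most abundant member and rose with every treatment. It was at 4539, 4364, 4755 and 4848 FPKM with both compounds, 3259, 3679.6, 3432 and 3429 with AZ1366, 3766, 3903, 4197 and 4002 with gefitinib and 2844, 3091, 3196 and 3012 with vehicle. No treated library was below a vehicle library, and the combination libraries were the highest of the 16. The change was 0.61 ± 0.061, adjusted p = 5.57e-08, with both compounds, 0.39 ± 0.061, adjusted p = 2.81e-05, with gefitinib and 0.18 ± 0.061, adjusted p = 0.0152, with AZ1366, which was not called without AZ1366 library 2 (0.15, adjusted p = 0.0593). The gene has many processed copies in the genome, and reads shared with them could not be separated. EEF1A2, the paralogue known for expression in muscle and neurons, was at 337, 363, 298 and 319 FPKM with both compounds, 342, 260.0, 292 and 276 with AZ1366, 341, 370.2, 339 and 379.6 with gefitinib and 468, 375, 344 and 381 with vehicle. Vehicle library 1 was the highest of the 16. The fall with AZ1366 was called (-0.42 ± 0.093, adjusted p = 0.00120). That with both compounds (-0.24 ± 0.093, adjusted p = 0.0236) was not called without vehicle library 1 (-0.16, adjusted p = 0.108), without combination library 3 (-0.20, adjusted p = 0.0812) or without combination library 4 (-0.23, adjusted p = 0.0537), nor after median-ratio scaling (-0.06). It was called after the length and GC correction (-0.30, adjusted p = 0.000791) and without library 1 of both vehicle and AZ1366 (-0.16, adjusted p = 0.0465).

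The exchange complex that reloads eEF1A is encoded by EEF1B2, EEF1D and EEF1G. EEF1G was at 939.6, 998, 975 and 1014 FPKM with both compounds, 749.9, 727, 807 and 800.5 with AZ1366, 776, 861, 817 and 898 with gefitinib and 720.1, 665, 747 and 690.4 with vehicle. The combination and gefitinib groups were above vehicle without overlap (0.48 ± 0.058, adjusted p = 7.27e-07, with both compounds and 0.25 ± 0.058, adjusted p = 0.00133, with gefitinib). EEF1B2 was slightly higher with both compounds (0.23 ± 0.069, adjusted p = 0.00505), and EEF1D was called in no comparison as deposited (-0.01 ± 0.10, adjusted p = 0.935, with both compounds). After median-ratio scaling EEF1D was higher with both compounds than with gefitinib (0.21, adjusted p = 0.0382). The calls of EEF1G and EEF1B2 against vehicle changed under the length and GC correction, and the cause was not tested. After the correction, EEF1G changed by 0.08, adjusted p = 0.228, with both compounds and 0.09, adjusted p = 0.206, with gefitinib. EEF1B2 then changed by -0.16, adjusted p = 0.00106, with both compounds, which turned its direction. EEF1E1, the scaffold of the tRNA synthetase complex, fell (-0.56 ± 0.056, adjusted p = 5.64e-08, with both compounds, and -0.89, adjusted p = 9.57e-08, after the correction), at a locus joined with TXNDC5 and MUTED.

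EEF2, the translocase, fell with AZ1366 and was lower with it than with gefitinib. It was at 598, 605, 526 and 525 FPKM with both compounds, 569, 446, 475 and 468 with AZ1366, 608, 651, 583 and 608 with gefitinib and 767, 634, 623 and 681 with vehicle. All AZ1366 libraries were below all vehicle libraries, and vehicle library 1 was the highest of the 16. The change was -0.47 ± 0.081, adjusted p = 0.000184, with AZ1366, -0.14 ± 0.081, adjusted p = 0.144, with gefitinib and -0.26 ± 0.081, adjusted p = 0.00690, with both compounds, and gefitinib was above AZ1366 (0.33 ± 0.081, adjusted p = 0.00304). After the length and GC correction the fall with AZ1366 was -0.25, adjusted p = 0.000355. The fall with both compounds was not called after median-ratio scaling (-0.08) or after the length and GC correction (-0.06, adjusted p = 0.209). The interaction of the 2 compounds had the value 0.34 ± 0.11, adjusted p = 0.161, over all libraries, and was called without AZ1366 library 1. EEF2K, the kinase that halts eEF2, was at 5.05, 5.10, 4.48 and 4.72 FPKM with both compounds, 7.95, 5.81, 6.06 and 6.67 with AZ1366, 6.08, 6.31, 5.83 and 5.91 with gefitinib and 8.95, 8.06, 7.98 and 8.09 with vehicle. It fell with every treatment (-0.67 ± 0.073, adjusted p = 1.86e-07, with both compounds, and -0.39, adjusted p = 1.72e-06, after the length and GC correction), and the combination libraries were below all others.

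**Figure D5:**
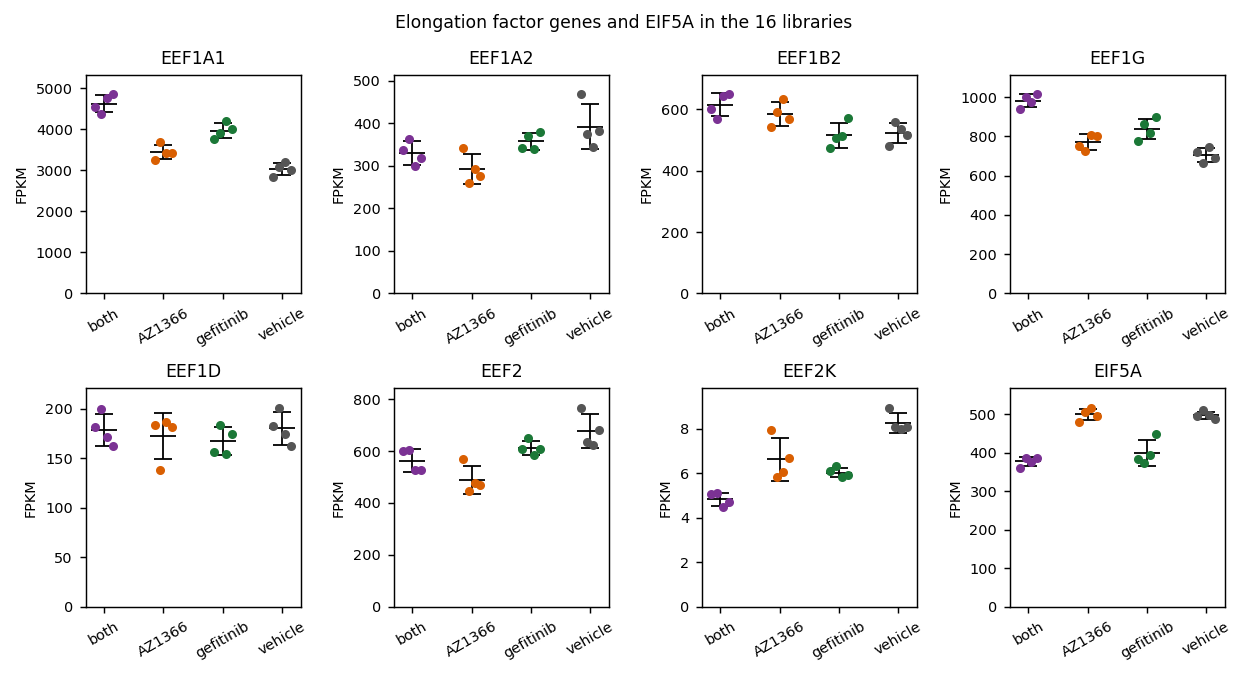
Panels give the FPKM of 7 elongation genes and EIF5A in the 4 libraries of each group (both compounds, AZ1366, gefitinib and vehicle from left to right), with the mean and SD. EEF1A1 and EEF1G are highest with both compounds, EEF2K is lowest there, and EIF5A is lower with both compounds and with gefitinib than with AZ1366 and vehicle.

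The 4 Argonaute genes caught by the older symbol did not move together. EIF2C2 (AGO2), the slicer of the microRNA pathway, was at 3.71, 3.91, 3.26 and 3.30 FPKM with both compounds, 6.72, 4.53, 5.19 and 5.34 with AZ1366, 4.65, 4.74, 4.36 and 4.31 with gefitinib and 9.28, 7.47, 8.04 and 7.62 with vehicle. The combination libraries were below and the vehicle libraries above all others (-0.999 ± 0.087, adjusted p = 1.01e-08, with both compounds). EIF2C4 (AGO4), under 2 FPKM in every library, was higher with both compounds (0.37 ± 0.061, adjusted p = 2.23e-05) and with gefitinib (0.33 ± 0.061, adjusted p = 0.000153), and EIF2C3 (AGO3) was lower with both (-0.46 ± 0.073, adjusted p = 1.48e-05), by less after the length and GC correction (-0.17, adjusted p = 0.00725).

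Around the members, 47 other genes of translation control were listed in 6 groups, of which 45 were tested. With both compounds against vehicle 11 were higher and 25 lower (24.4% and 55.6%, beside 29.9% and 49.4% of all loci). With AZ1366 6 were higher and 27 lower (13.3% and 60%, beside 18.6% and 39.8%), and with gefitinib 10 were higher and 24 lower (22.2% and 53.3%, beside 27.7% and 36.9%). Of the 7 genes of termination and ribosome recycling, 6 fell with both compounds. ABCE1, the ATPase that splits ribosomes after termination, averaged 31.7 ± 0.831 FPKM with both compounds, 70.7 ± 4.80 with AZ1366, 48.9 ± 1.89 with gefitinib and 96.2 ± 5.33 with vehicle (-1.57 ± 0.054, adjusted p = 6.16e-14, with both compounds). GSPT1 and ETF1, the release factor genes, fell by less (-0.66 ± 0.050, adjusted p = 1.6e-09, for GSPT1 and -0.64 ± 0.047, adjusted p = 1.16e-09, for ETF1). MCTS1, a re-initiation factor, was the 1 that rose (0.56 ± 0.085, adjusted p = 9.96e-06).

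In the mTORC1 and kinase group, 7 of 12 tested fell and 2 rose with both compounds. LARP1, known to bind terminal oligopyrimidine tracts, averaged 25.1 ± 1.75 FPKM with both compounds, 36.0 ± 8.84 with AZ1366, 35.8 ± 2.42 with gefitinib and 59.6 ± 3.15 with vehicle (-1.22 ± 0.11, adjusted p = 1.54e-08, with both compounds). MTOR itself fell (-0.93 ± 0.089, adjusted p = 3.44e-08), and the genes that rose were PDCD4 and MKNK2 (0.34 ± 0.10, adjusted p = 0.00580). Among the 8 genes of eIF2 phosphorylation and its response, 5 fell and ATF4, the factor whose translation rises when eIF2 is phosphorylated, was the 1 that rose, with 111 ± 4.44 FPKM with both compounds, 71.9 ± 13.02 with AZ1366, 114 ± 6.68 with gefitinib and 80.3 ± 7.17 with vehicle. EIF2AK4, the kinase that senses uncharged tRNA, fell most in that group (-0.82 ± 0.094, adjusted p = 3.3e-07, with both compounds), and PPP1R15B, a phosphatase subunit for eIF2, fell too (-0.37 ± 0.067, adjusted p = 8.04e-05). The poly(A)-binding gene PABPC1 fell (-0.62 ± 0.072, adjusted p = 3.74e-07, with both compounds), while PAIP2, an inhibitor of that protein, rose (0.66 ± 0.068, adjusted p = 8.02e-08). Of the 8 genes that make hypusine on eIF5A or diphthamide on eEF2, 3 rose and 3 fell with both compounds, among them DOHH, the hypusine hydroxylase (-0.89 ± 0.088, adjusted p = 4.81e-08), and DPH2, of diphthamide synthesis (-0.84 ± 0.074, adjusted p = 9.83e-09). Of the 6 mitochondrial factors, 2 rose and 2 fell with both compounds, among them GFM1, a mitochondrial elongation factor (-0.72 ± 0.050, adjusted p = 4.95e-10), and MTIF3, a mitochondrial initiation factor (0.50 ± 0.057, adjusted p = 3.13e-07).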

How the data were processed

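RNA from 16 libraries was sequenced and aligned with TopHat 1.4.1 to hg19, and assembled and compared with Cufflinks 1.3.0 and Cuffdiff, per the submitters' processing notes. The authors deposited FPKM values for 24293 loci. The annotation and the use of strand are not given in the sources used here. No whole-read steps were found in low values (the fullest of the bins of width 0.05 held 9.04% of them), so depth is unknown. There were 0 value columns left unused, and no 2 libraries held identical values.

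Loci with a mean of at least 1 FPKM (11647) were fitted as log2(FPKM + 1) over all 4 groups with limma 3.58.1 in R 4.3.3, with a mean-variance trend, Benjamini-Hochberg adjustment over all loci tested and a threshold of 0.05. Fold changes on this scale understate those of low genes. Alternatives were median-ratio scaling, quantile normalization, a pseudocount of 0.1, a minimum of 5 FPKM or none, no trend, a replicate block and leaving out each library. The comparison of gefitinib with AZ1366, a correction for transcript length and GC content and a fit without library 1 of vehicle and of AZ1366 were added after seeing the data. The correction took natural splines of 5 terms each in log length and GC content of GENCODE transcripts, found for 99.05% of loci tested, out of each library's deviations. The fit was tested on simulated data.

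The members and gene lists were chosen with earlier results of these data known. Genes were named as the 4 members with the largest rise and the 4 with the largest fall among those called in each comparison, the 4 smallest p among called members of the interaction, a fixed set of members for each role, 5 checks of the treatment and the 2 smallest p of each other list. Further members named for their role, and the pyrimidine starts, were chosen after their values were seen.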

Additional observations from a re-analysis of the deposited data

Results flagged for a closer look

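Of 128 sets of 4 libraries of 1 group screened (32 named members in each of the 4 groups), 8 held a library whose gap to its nearest neighbour took up more of the group's range than Dixon's critical value for 4 samples. Chance alone gives about 1 in 20 such sets, so 8 of 128 is near that rate. AZ1366 library 1 stood above its group for EIF3A (95.3 FPKM, against 68.2 to 69.0 in the other 3) and for EIF4G3 (14.1 FPKM, against 8.46 to 9.40). Vehicle library 1 stood above its group for EIF4G1 (150.4 FPKM, against 123 to 126) and for EEF2K (8.95 FPKM, against 7.98 to 8.09). EIF4A2 was at 57.1 FPKM in vehicle library 2, against 53.5 to 54.0 in the others. EIF2B5 was at 12.3 FPKM in gefitinib library 2, against 11.2 to 11.3 in the others. EIF2D was at 16.1 FPKM in AZ1366 library 3, against 14.5 to 14.8, and EIF3E at 327 FPKM in gefitinib library 3, against 301 to 304. The fits without vehicle library 1 and AZ1366 library 1 kept EIF3A, EIF4G1, EIF4G3 and EEF2K lower with both compounds than with vehicle.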

How the results depend on the processing

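Over all alternatives, 259 of the values for counts of members stayed within 1.5 times the count as reported and 5 did not. For the named members' changes and the members' median changes together, 3135 values stayed the same, in call for a member or within the spread for a median. Of the named members' changes, 97 kept direction and lost the call, 43 kept direction and gained it, and 5 reversed. The 8 that moved by more than the spread were all median changes. A change of direction was counted as reversed only where at least 1 of the 2 fits gave a call. Median-ratio scaling gave 19 members higher with AZ1366 than with vehicle, beside 30.4% of all loci. It gave 20 higher with both compounds than with gefitinib, beside 26.6% of all loci. The interaction had 1 member called after the length and GC correction, 1 without library 1 of both vehicle and AZ1366, and 0 to 2 higher and 0 lower when single libraries were left out. Leaving out each library gave 14 to 16 higher and 31 to 33 lower with both compounds than with vehicle, 10 to 14 and 23 to 27 with AZ1366, and 10 to 12 and 28 to 31 with gefitinib. For both compounds against gefitinib it gave 8 to 12 higher and 20 to 24 lower. Both compounds against AZ1366 then gave 12 to 13 and 29 to 31, and gefitinib against AZ1366 gave 6 to 9 and 11 to 15. Shares of all loci were not computed for these fits, so the ranges show only how steady the members' counts were. The reversals were EIF4A2 with AZ1366 (-0.030) and EEF1B2 with AZ1366 (-0.12) and with both compounds (-0.16) after the length and GC correction, and EIF5A with AZ1366 under quantile normalization (-0.15) and that correction (-0.11); the cause was not tested.

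With the replicate block, 16 members were higher and 33 lower with both compounds than with vehicle, 13 and 24 with AZ1366, and 12 and 30 with gefitinib; 13 and 24 for both against gefitinib, 13 and 32 for both against AZ1366, 8 and 15 for gefitinib against AZ1366, and 0 for the interaction. Shares of all loci called were not computed with the block, so these counts show only how the members' calls depend on that setting. Deviations of same-numbered libraries of different groups correlated between -0.45 and 0.54 over 24 pairs. Their median was 0.22, against -0.09 over 72 other pairs. Of the 24, 16 were above 0.1, and 4 of 16 libraries correlated best with their own number. Since some same-numbered pairs fell below 0.1, the main fit did not treat the libraries as paired. Those pairs do not show that libraries of the same number were independent, and the counts with the block are given above. Depth is unknown, so members of a few FPKM have an error that cannot be split into counting and other spread.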

Other observations

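CACGTG, the palindromic core bound by MYC and related factors, was searched from 250 bases before to 50 after the RefSeq start (GRCh38.p14) of the 48 matched members. It was found in 11 (22.9%), against 8.77% of all symbols and 12.8% of tested loci with an entry. With both compounds against vehicle, 1 of the 11 was higher and 7 were lower, with a median change of -0.21. Of the 37 without it, 11 were higher and 21 lower, with a median of -0.29. Over all tested loci with an entry, 25.2% of the 1208 with CACGTG were higher and 53.8% lower, with a median of -0.21. Of the 8194 without it, 30.3% were higher and 49.2% lower, with a median of -0.15. A match is a description of the letters in the window only.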
